A study of Sus scrofa with 9 samples.

Results

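Genes that drive DNA replication and cell division were followed in biopsies of transplanted pig kidneys taken on day 3 after surgery. The set is a list of 60 genes chosen by symbol, of which 39 had a probe set (the group of array probes that reports 1 transcript) carrying that single symbol in the array's annotation. The whole series holds 12362 genes named this way on 19124 probe sets. Where a gene had several probe sets, the one with the highest mean over all 9 arrays was used, and this applied to CDK1 alone. No filter on low values was applied, and none of the 39 lay among the dimmest 25% of probe sets. The 21 genes not analysed here include PCNA, MKI67, CCNA2, CCNB1, PLK1, AURKB, BIRC5, RRM2, TYMS and CDKN1B. This list and the further lists below were chosen with earlier results of these data known. Shares of a list set beside those of all probe sets therefore describe the list and are not independent support.

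Each array came from a different animal, a male Yorkshire pig of 30 kg, with 3 animals in each group. In every animal the right kidney went through 30 min of warm ischemia, was taken out and flushed, and was later put back into the same pig. NEVKP kidneys were first held for 8 h by normothermic ex vivo perfusion, which keeps the organ warm and supplied outside the body. SCS kidneys spent 8 h in static cold storage, without flow. No Storage kidneys were put back directly. In all animals the left kidney was removed during the transplant operation, so the warm ischemia, the transplantation and the loss of the other kidney are shared by all groups, and kidneys without them were not analysed here. The deposited values are log2 intensities, and differences are given on that scale unless a fold is named.

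A cell that starts to divide passes from G1 into S phase when D- and E-type cyclins with their kinases release E2F factors from the retinoblastoma protein. The MCM helicase then opens DNA at origins for replication, after which cyclin B with CDK1 drives entry into mitosis under the transcription factors FOXM1 and MYBL2. The spindle checkpoint holds chromosomes back until all are attached, and the anaphase-promoting complex ends mitosis. Kidney tubule cells are mostly at rest in the healthy adult and are known to enter the cycle again after ischemic injury, while inhibitors such as p21, encoded by CDKN1A, hold cells in arrest. In a bulk biopsy, fewer cycling cells and less RNA per cycling cell cannot be told apart.

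Across the arrays the median log2 value ran from 5.705 to 5.797 and the correlation between arrays from 0.974 to 0.991. The deposited values had been normalized across arrays, so the alike medians come from that step and are no check of the samples. Of the kidney markers, 9 of 15 proximal tubule and 6 of 9 loop of Henle and distal tubule genes had a probe set, and 0 of them were dim. Per array their mean levels were 9.703 to 10.735 and 8.217 to 9.574, against 6.155 to 6.204 over all genes. Single markers lay far lower, with lowest gene means of 4.866 and 4.412. SCS replicate 2 and NEVKP replicate 2 had the lowest array weights in limma, 0.464 and 0.565, against 0.93 to 1.62 for the others. Having 3 arrays a group bounds how exactly any difference is known.

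The cell cycle genes were highest in SCS kidneys and spread widely in the other groups. The mean over all 39 genes, relative to their No Storage mean, was 0.42, 0.33 and -0.15 in the NEVKP kidneys, 0.75, 0.38 and 0.54 in the SCS kidneys and -0.03, 0.30 and -0.27 in the No Storage kidneys (replicates 1, 2 and 3, log2 units). All SCS arrays lay above all No Storage arrays on this scale, but SCS replicate 2 lay below NEVKP replicate 1. SCS replicate 1 had the highest value of the 9 arrays for 29 of the 39 genes, whereas it had the highest for 11.6% of all genes. No Storage replicate 3 had the lowest value for 25 of the 39, against 11.1% of all genes. Within its group NEVKP replicate 3 was lowest for 35 of 39 and No Storage replicate 2 was highest for 34 of 39, against 33.7% and 34.1% of all genes. The genes thus moved together from animal to animal within groups as well. Their median SD within a group was 0.365 in NEVKP, 0.235 in SCS and 0.316 in No Storage kidneys, where that over all genes was 0.178, 0.189 and 0.140 (n = 3 each).

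**Figure D1:**
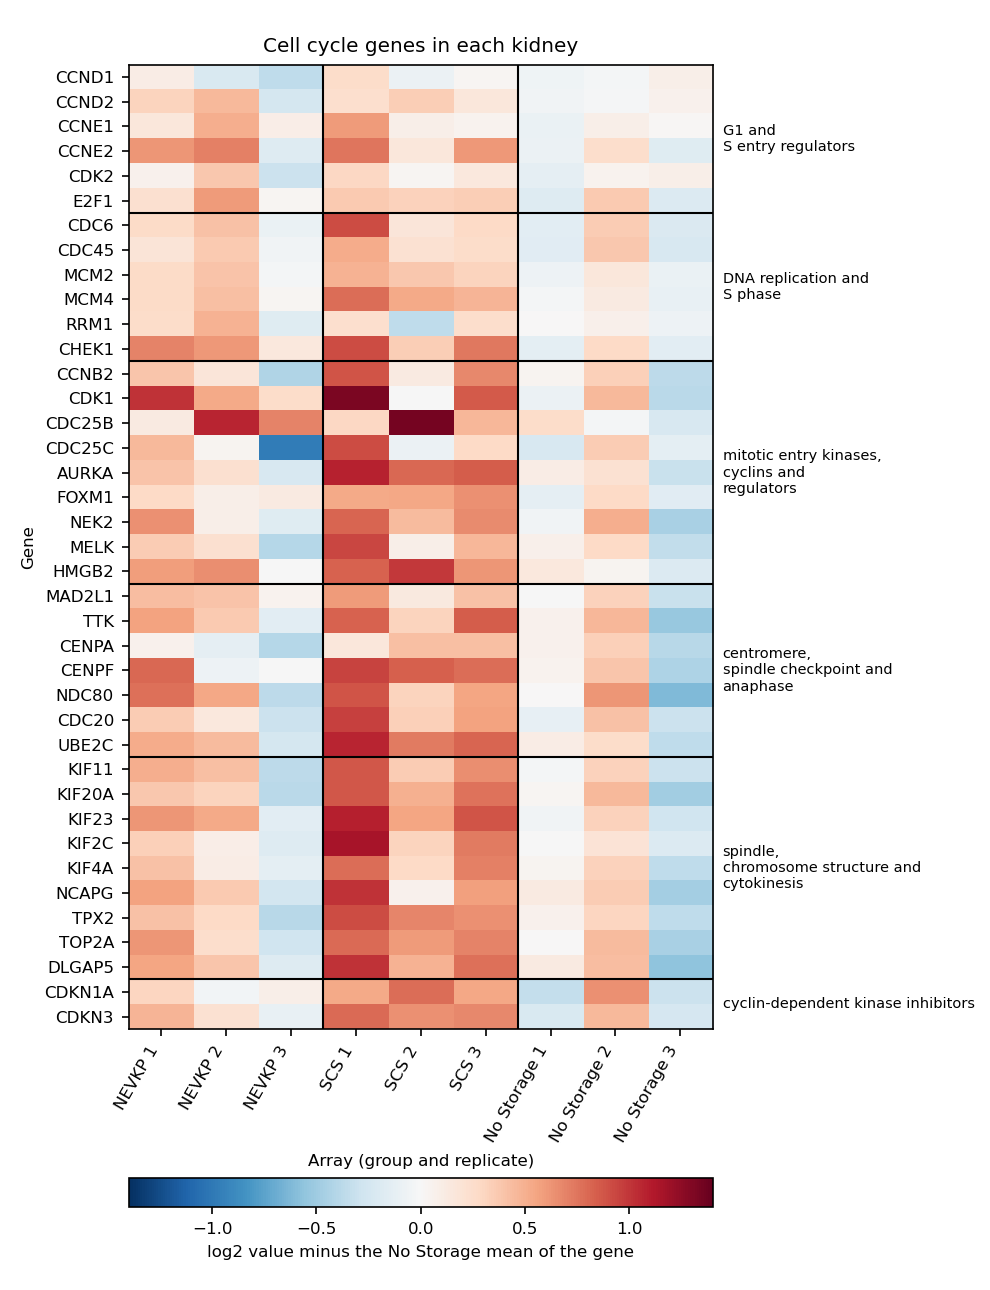
Log2 value of each of 39 cell cycle genes (rows, grouped by role) in each of the 9 kidneys (columns), as the difference from the gene's No Storage mean, with red above and blue below it. SCS replicate 1 is red in almost every row, and No Storage replicate 3 and NEVKP replicate 3 are blue in most mitotic rows.

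Genes of the later phases had the larger median differences between SCS and No Storage kidneys. In SCS against No Storage kidneys the median log2 difference was 0.24 over 6 G1 and S entry regulators, 0.42 over 6 replication and S phase genes and 0.66 over 25 mitotic genes. It was 0.66 over the 2 genes listed as inhibitors, CDKN1A and CDKN3, of which CDKN3 is itself most abundant in dividing cells. In NEVKP against No Storage kidneys the same medians were 0.21, 0.21, 0.19 and 0.15. Per array, the mean of the 25 mitotic genes was 0.49, 0.30 and -0.19 in NEVKP kidneys, 0.86, 0.45 and 0.65 in SCS kidneys and 0.02, 0.34 and -0.36 in No Storage kidneys. The order of phases was not the same in every kidney: NEVKP replicate 2 had 0.41 for G1, 0.45 for S phase and 0.30 for mitotic genes, while SCS replicate 1 had 0.42, 0.64 and 0.86. These medians and means describe the list and were not tested.

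**Figure D2:**
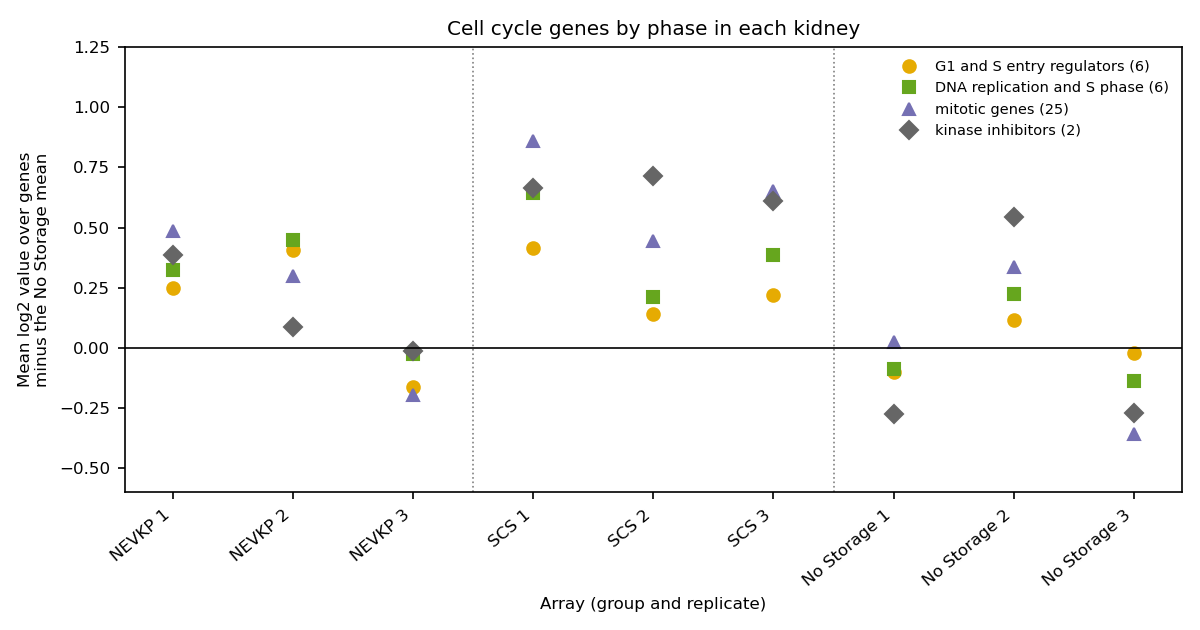
Mean log2 value over the genes of each phase minus their No Storage mean (vertical axis) in each kidney (horizontal axis), with 1 marker per phase and gene numbers in the legend. Mitotic genes reach 0.86 in SCS replicate 1, and in NEVKP replicate 2 the S phase genes lie above the mitotic genes.

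Among the G1 and S entry regulators, CCND1, the D-type cyclin that answers growth signals, had values that overlapped between all groups. It had log2 values of 9.58, 9.27 and 9.13 in NEVKP kidneys, 9.73, 9.40 and 9.50 in SCS kidneys and 9.42, 9.45 and 9.56 in No Storage kidneys. Its difference was 0.07 (SE 0.15, limma adjusted p = 0.885) for SCS and -0.15 (SE 0.15, limma adjusted p = 0.813) for NEVKP against No Storage kidneys. CCND2, a second D-type cyclin, differed by 0.25 and CDK2, the partner of cyclin E, by 0.16 in SCS against No Storage kidneys. CCNE2, an E-type cyclin, had 5.77, 5.86 and 4.96 in NEVKP kidneys, 5.90, 5.30 and 5.75 in SCS kidneys and 5.07, 5.39 and 4.97 in No Storage kidneys. NEVKP replicate 3 lay with the No Storage kidneys while NEVKP replicates 1 and 2 lay near the upper SCS values, and the difference was 0.38 (SE 0.25, limma adjusted p = 0.671) for NEVKP and 0.50 (SE 0.25, limma adjusted p = 0.366) for SCS against No Storage. CCNE1 was the 1 gene of the 39 whose NEVKP values all lay above all No Storage values, as did 7.94% of all probe sets. It had 5.62, 5.97 and 5.55 in NEVKP kidneys, 6.05, 5.54 and 5.51 in SCS kidneys and 5.37, 5.54 and 5.48 in No Storage kidneys. The margin was narrow, 5.554 against 5.543, and the NEVKP difference from No Storage was 0.25 (SE 0.17, limma adjusted p = 0.693). E2F1, which switches on S phase genes, had 6.83, 7.20 and 6.63 in NEVKP kidneys, 6.98, 6.93 and 6.95 in SCS kidneys and 6.42, 6.98 and 6.42 in No Storage kidneys. The SCS values were close together, but No Storage replicate 2 reached them, and the difference was 0.35 (SE 0.19, limma adjusted p = 0.417).

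Of the 6 DNA replication genes, 3 had SCS values that all lay above all No Storage values, as did 11.3% of all probe sets. MCM4, a subunit of the replicative helicase (NCBI Gene ID 100156398), had 7.25, 7.40 and 7.01 in NEVKP kidneys, 7.76, 7.52 and 7.46 in SCS kidneys and 6.96, 7.11 and 6.88 in No Storage kidneys. Its SCS values lay above all values of both other groups, at 1.51-fold the No Storage mean, a log2 difference of 0.60 (SE 0.14, limma adjusted p = 0.103). MCM2, another helicase subunit, showed the same separation from No Storage kidneys with 6.67, 6.81 and 6.37 in NEVKP kidneys, 6.90, 6.78 and 6.72 in SCS kidneys and 6.34, 6.57 and 6.31 in No Storage kidneys, a difference of 0.39 (SE 0.14, limma adjusted p = 0.225). CHEK1, the kinase that guards replicating DNA, had 5.84, 5.75 and 5.29 in NEVKP kidneys, 6.05, 5.48 and 5.88 in SCS kidneys and 5.0, 5.41 and 5.0 in No Storage kidneys. Its SCS values lay above all No Storage values, NEVKP replicates 1 and 2 lay above SCS replicate 2, and it had the smallest p of the 39 genes in NEVKP against No Storage kidneys, a difference of 0.49 (SE 0.20, limma adjusted p = 0.528) beside 0.66 (SE 0.20, limma adjusted p = 0.157) for SCS. The origin licensing gene CDC6 differed by 0.45 and the helicase cofactor gene CDC45 by 0.33 in SCS against No Storage kidneys, with overlapping arrays. RRM1, the large subunit of ribonucleotide reductase, had 8.68, 8.90 and 8.25 in NEVKP kidneys, 8.66, 8.07 and 8.67 in SCS kidneys and 8.42, 8.49 and 8.35 in No Storage kidneys. SCS replicate 2 was the lowest of all 9, and the difference for SCS was 0.04 (SE 0.20, limma adjusted p = 0.951), which turned to -0.0032 with arrays centred on their median.

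The mitotic entry genes include AURKA, which had the smallest p of the 39 in SCS against No Storage and in NEVKP against SCS kidneys. AURKA encodes a kinase of spindle poles (NCBI Gene ID 574063), and its log2 values were 7.20, 7.02 and 6.58 in NEVKP kidneys, 7.87, 7.61 and 7.65 in SCS kidneys and 6.90, 7.01 and 6.49 in No Storage kidneys. The SCS values lay above all others and the NEVKP and No Storage values overlapped. AURKA averaged 6.93 ± 0.32 in NEVKP, 7.71 ± 0.14 in SCS and 6.80 ± 0.28 in No Storage kidneys (SD, n = 3 each). The SCS mean was 1.88-fold the No Storage mean, a log2 difference of 0.91 (SE 0.19, limma adjusted p = 0.0749), and NEVKP differed from SCS by -0.78 (SE 0.19, limma adjusted p = 0.52). By unadjusted p AURKA stood at rank 196 of 19124 probe sets in SCS against No Storage and at rank 80 in NEVKP against SCS.

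FOXM1, the transcription factor that turns on mitotic genes (NCBI Gene ID 100511565), had 6.01, 5.82 and 5.86 in NEVKP kidneys, 6.26, 6.28 and 6.37 in SCS kidneys and 5.61, 6.02 and 5.57 in No Storage kidneys. Here too the SCS kidneys stood above every other kidney, with a difference of 0.57 (SE 0.14, limma adjusted p = 0.107) from No Storage and NEVKP differing from SCS by -0.41 (SE 0.14, limma adjusted p = 0.603). HMGB2, a chromatin protein of dividing cells, had 8.32, 8.37 and 7.71 in NEVKP kidneys, 8.55, 8.72 and 8.34 in SCS kidneys and 7.87, 7.76 and 7.54 in No Storage kidneys. Its SCS and No Storage values did not overlap, NEVKP replicate 2 just exceeded the lowest SCS value, and the differences were 0.81 (SE 0.19, limma adjusted p = 0.0988) for SCS and 0.41 (SE 0.19, limma adjusted p = 0.56) for NEVKP against No Storage. CDK1, the kinase at the centre of mitotic entry, had 7.30, 6.82 and 6.55 in NEVKP kidneys, 7.61, 6.28 and 7.16 in SCS kidneys and 6.22, 6.75 and 5.91 in No Storage kidneys. SCS replicate 2 lay within the No Storage range, and the difference for SCS was 0.72 (SE 0.34, limma adjusted p = 0.339). The CDK1 probe set of lower mean gave 0.70 for SCS and 0.24 for NEVKP against No Storage, where the first gave 0.72 and 0.60. For NEVKP against SCS the probe set of lower mean gave -0.46 and the first -0.12. For SCS the unadjusted limma p was 0.0191 for the probe set of lower mean and 0.0569 for the first, so the count at an unadjusted p under 0.05 leaves CDK1 out.

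CDC25B, a phosphatase that activates CDK1, followed another pattern. Its values were 6.07, 7.02 and 6.65 in NEVKP kidneys, 6.23, 7.28 and 6.42 in SCS kidneys and 6.20, 5.92 and 5.73 in No Storage kidneys, so that SCS replicate 2 and NEVKP replicate 2 were the highest, whereas SCS replicate 1 was the lowest of the SCS kidneys. The SCS values lay above all No Storage values by a narrow margin. CDC25B differed by 0.70 (SE 0.30, limma adjusted p = 0.3) for SCS and 0.63 (SE 0.30, limma adjusted p = 0.565) for NEVKP against No Storage. CDC25C, a phosphatase of the same family, differed by 0.37 for SCS, and NEVKP replicate 3 had the lowest value of all 9 kidneys at 4.04. CCNB2, a B-type cyclin, and the kinase genes NEK2 and MELK differed by 0.56, 0.64 and 0.50 in SCS against No Storage kidneys, with overlapping arrays.

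Centromere, checkpoint and anaphase genes were led by UBE2C, the ubiquitin-conjugating enzyme that works with the anaphase-promoting complex (NCBI Gene ID 100153133). UBE2C had 7.20, 7.12 and 6.43 in NEVKP kidneys, 7.74, 7.40 and 7.50 in SCS kidneys and 6.78, 6.93 and 6.32 in No Storage kidneys. The SCS values exceeded all others, at 1.83-fold the No Storage mean, with a log2 difference of 0.87 (SE 0.23, limma adjusted p = 0.12), and NEVKP differed from SCS by -0.63 (SE 0.23, limma adjusted p = 0.616). CENPF, a kinetochore protein of late G2 and mitosis, had 7.93, 7.06 and 7.12 in NEVKP kidneys, 8.07, 7.97 and 7.92 in SCS kidneys and 7.17, 7.52 and 6.70 in No Storage kidneys. NEVKP replicate 1 lay close to the SCS kidneys and the other NEVKP kidneys lay with No Storage, and the difference was 0.86 (SE 0.25, limma adjusted p = 0.15) for SCS against No Storage. CENPA, the histone that marks centromeres, had 6.71, 6.52 and 6.25 in NEVKP kidneys, 6.81, 7.07 and 7.07 in SCS kidneys and 6.71, 6.99 and 6.26 in No Storage kidneys. Its SCS values lay above all NEVKP values with a NEVKP minus SCS difference of -0.49 (SE 0.20, limma adjusted p = 0.648), whereas SCS and No Storage kidneys overlapped. CDC20, an activator of the anaphase-promoting complex, had 7.36, 7.15 and 6.70 in NEVKP kidneys, 7.97, 7.34 and 7.57 in SCS kidneys and 6.89, 7.42 and 6.71 in No Storage kidneys. For CDC20 the groups overlapped and NEVKP differed from SCS by -0.56 (SE 0.24, limma adjusted p = 0.655). The checkpoint genes MAD2L1 and TTK and the kinetochore gene NDC80 differed by 0.38, 0.66 and 0.58 in SCS against No Storage kidneys, each with overlapping arrays. MAD2L1 had 7.17, 7.13 and 6.79 in NEVKP kidneys, 7.34, 6.87 and 7.14 in SCS kidneys and 6.72, 7.05 and 6.43 in No Storage kidneys.

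Spindle, chromosome and cytokinesis genes held 7 of 9 members whose SCS values all lay above all No Storage values, where 11.3% of all probe sets lay higher without overlap. KIF23, a motor protein of the cell division midzone, had 7.53, 7.43 and 6.76 in NEVKP kidneys, 8.0, 7.46 and 7.79 in SCS kidneys and 6.86, 7.24 and 6.63 in No Storage kidneys, with a difference of 0.84 (SE 0.24, limma adjusted p = 0.138). Its SCS and No Storage values did not overlap, while NEVKP replicate 1 lay above SCS replicate 2. KIF2C, a motor that corrects faulty attachments, had 5.24, 5.0 and 4.72 in NEVKP kidneys, 6.07, 5.21 and 5.64 in SCS kidneys and 4.90, 5.10 and 4.72 in No Storage kidneys. NEVKP replicate 1 just exceeded SCS replicate 2, while every SCS value lay above the No Storage values, a difference of 0.73 (SE 0.22, limma adjusted p = 0.153), and NEVKP differed from SCS by -0.65 (SE 0.22, limma adjusted p = 0.599). TPX2, which activates AURKA on the spindle, had 7.45, 7.32 and 6.66 in NEVKP kidneys, 7.95, 7.72 and 7.69 in SCS kidneys and 7.10, 7.35 and 6.69 in No Storage kidneys. SCS kidneys lay above both other groups, and the difference was 0.74 (SE 0.23, limma adjusted p = 0.158) from No Storage. TOP2A, the enzyme that untangles replicated DNA, had 8.03, 7.66 and 7.14 in NEVKP kidneys, 8.21, 8.01 and 8.10 in SCS kidneys and 7.42, 7.86 and 6.96 in No Storage kidneys. NEVKP replicate 1 overlapped the SCS kidneys, which lay above all No Storage kidneys, and the difference was 0.69 (SE 0.25, limma adjusted p = 0.228). KIF20A, another midzone motor, had 8.31, 8.24 and 7.55 in NEVKP kidneys, 8.80, 8.42 and 8.69 in SCS kidneys and 7.96, 8.39 and 7.44 in No Storage kidneys. Its SCS values lay above all NEVKP values and, by a narrow margin, above all No Storage values. KIF20A differed by 0.71 (SE 0.26, limma adjusted p = 0.231) for SCS against No Storage and by -0.60 (SE 0.26, limma adjusted p = 0.655) for NEVKP against SCS. The motor genes KIF11 and KIF4A, the condensin gene NCAPG and the spindle gene DLGAP5 differed by 0.63, 0.59, 0.55 and 0.75 in SCS against No Storage kidneys.

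Both measured genes listed as inhibitors, CDKN1A and CDKN3, had higher means in SCS than in No Storage kidneys. CDKN1A, which encodes the kinase inhibitor p21 (NCBI Gene ID 100152215), had 6.86, 6.52 and 6.64 in NEVKP kidneys, 7.09, 7.34 and 7.11 in SCS kidneys and 6.22, 7.20 and 6.26 in No Storage kidneys. No Storage replicate 2 lay within the SCS range while No Storage replicates 1 and 3 lay below every other kidney, and the difference was 0.62 (SE 0.24, limma adjusted p = 0.25). All NEVKP values lay below all SCS values, with a difference of -0.51 (SE 0.24, limma adjusted p = 0.674). CDKN3, a phosphatase that acts on cyclin-dependent kinases and is itself most abundant in dividing cells, had 7.31, 7.06 and 6.74 in NEVKP kidneys, 7.63, 7.49 and 7.52 in SCS kidneys and 6.63, 7.29 and 6.61 in No Storage kidneys. Its SCS values lay above all others, at 1.63-fold the No Storage mean, a log2 difference of 0.70 (SE 0.21, limma adjusted p = 0.146).

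**Figure D3:**
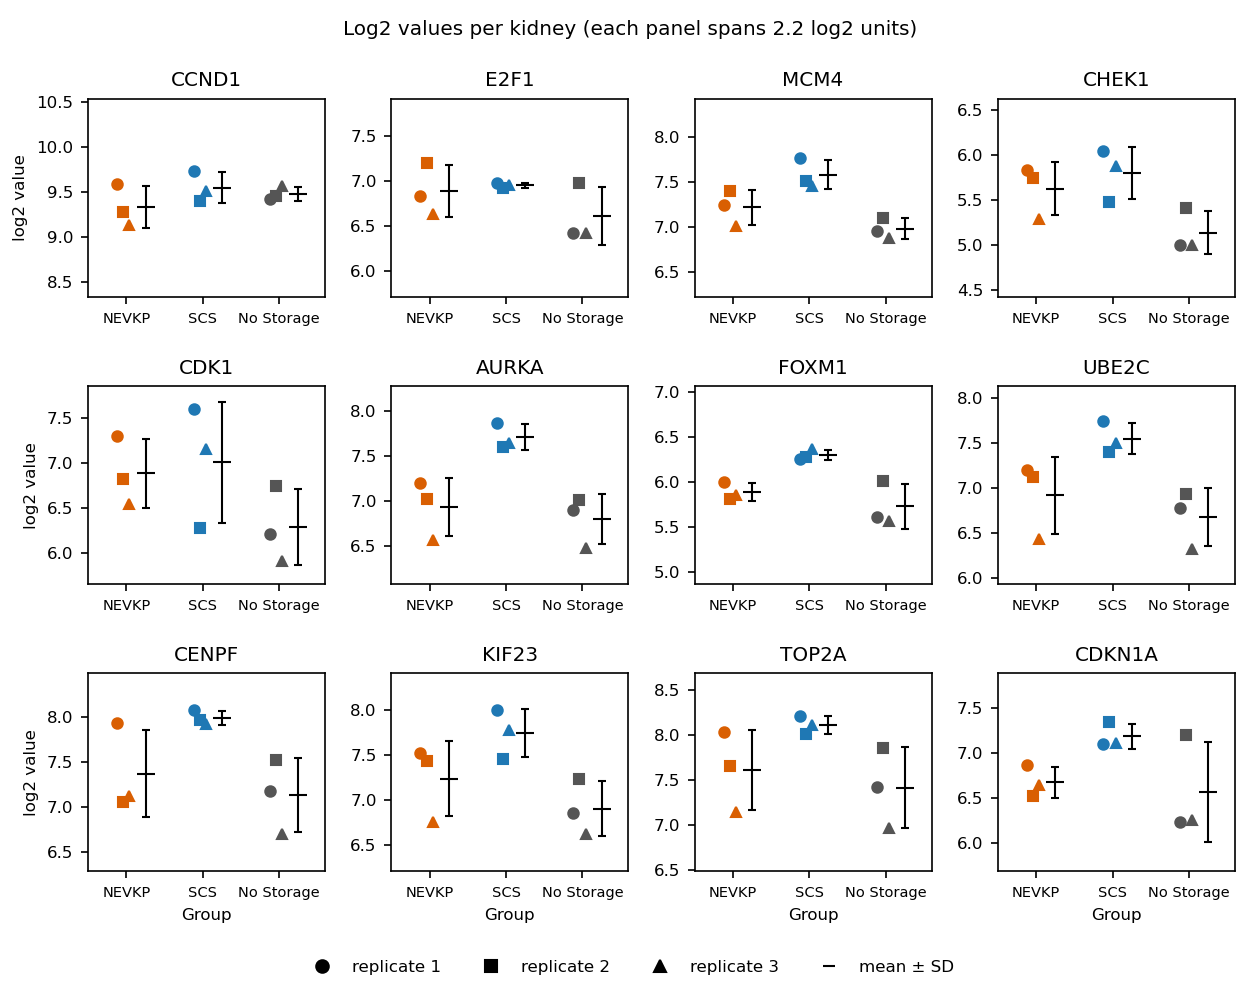
Log2 values of 12 cell cycle genes (vertical axes, each spanning 2.2 units) in NEVKP, SCS and No Storage kidneys, with 1 symbol per replicate and the mean ± SD beside it (n = 3). MCM4, AURKA, FOXM1 and UBE2C show SCS values above all others, and CCND1 shows overlap of all groups.

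SCS against No Storage kidneys shows how day 3 differs after cold storage and after direct re-implantation. All 39 genes had a higher mean in SCS kidneys, RRM1 only without median centring, where 51.7% of all probe sets did. Without SCS replicate 1 the number was 37, since CCND1 and RRM1 changed sign. Of the 39, 22 had an unadjusted p under 0.05 in limma and a higher mean, which is 56.4%, where 7.75% of all probe sets did so, and 0 had a lower mean at that level, where 7.79% did. None passed an adjusted p of 0.05 over all probe sets (0 of 39, smallest 0.0749 for AURKA), a threshold that 0.162% of probe sets passed. By role the 22 were 0 of 6 G1 regulators, 3 of 6 replication genes, 17 of 25 mitotic genes and the 2 genes listed as inhibitors, CDKN1A and CDKN3. The arrays did not overlap for 18 of 39, or 46.2%, where 11.3% of all probe sets lay higher without overlap. As the genes moved together from animal to animal, they are not separate observations. Counts of genes, here and below, are thus not counts of independent results. The median log2 difference of the 39 was 0.60, against 0.0096 over all probe sets and 0.00020 over all genes. Without No Storage replicate 3 the 22 became 11 and without SCS replicate 1 they became 13, with medians of 0.42 and 0.49. For fits without 1 array, here and below, the share of all probe sets at that level is not reported. A change in the 39 alone therefore cannot be told from one in the whole fit.

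NEVKP against No Storage kidneys puts the same question for warm perfusion, and here the cell cycle genes mostly overlapped. Of the 39, 36 had a higher mean in NEVKP kidneys, where 47.7% of all probe sets did, with CDK2 and CCNB2 turning just below 0 under median centring. This tally rested on single kidneys: 18 of the 39 genes, AURKA, TPX2 and KIF20A among them, changed sign when 1 array was left out, and the number with a higher mean ran from 22 without No Storage replicate 3 to 38 without No Storage replicate 2. The median was 0.20 over the 39 and -0.01 over all probe sets. CHEK1 was the 1 gene of 39 with an unadjusted p under 0.05 in limma and a higher mean, where 4.67% of all probe sets were. None passed the adjusted threshold (0 of 39, and 0% of probe sets, of which 9.07% had an unadjusted p under 0.05). The 1 gene without overlap was CCNE1, where 7.94% of all probe sets lay higher without overlap. CCND1, CDC25C and CENPA had lower means in NEVKP kidneys, with differences of -0.15, -0.16 and -0.15. Single kidneys moved these values. The median was 0.35 without NEVKP replicate 3 and 0.35 without No Storage replicate 2, with 8 and 7 genes at an unadjusted p under 0.05. It was 0.04 without No Storage replicate 3 and 0.09 without NEVKP replicate 1, with 0 and 1 such genes. The CHEK1 call was also lost, leaving 0 genes, without No Storage replicate 1 or NEVKP replicate 2 (median 0.18 and 0.14), and the count was 3 without SCS replicate 2. MCM4 differed by 0.24 (SE 0.14, limma adjusted p = 0.655) and MCM2 by 0.21 (SE 0.14, limma adjusted p = 0.69).

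The comparison of NEVKP with SCS sets both 8 h preservation methods against each other. NEVKP kidneys had a lower mean for 37 of 39 genes, where 54% of all probe sets were lower, and RRM1 (0.15) and CCNE1 (0.01, which turned to -0.05 with array weights) were the exceptions. When 1 array was left out, 10 of the 39 genes changed sign, CDK1, CDC25B and NDC80 among them, and the number with a lower mean ran from 30 without NEVKP replicate 3 to 38 without NEVKP replicate 2. The median was -0.41 over the 39, against -0.02 over all probe sets, and -0.49 over the 25 mitotic genes, -0.18 over replication genes and -0.09 over G1 regulators. In limma 11 of 39, or 28.2%, had an unadjusted p under 0.05 and a lower mean, where 3.7% of all probe sets did. These were 9 mitotic genes, MCM4 with -0.36 (SE 0.14, limma adjusted p = 0.648) and CDKN3 with -0.51 (SE 0.21, limma adjusted p = 0.648), and 0 of 39 were higher at that level, where 3.8% of all probe sets were. None passed the adjusted threshold in limma (0 of 39, and 0% of probe sets, of which 7.5% had an unadjusted p under 0.05). The arrays did not overlap for 9 of 39, or 23.1%, where 6.78% of all probe sets lay lower without overlap. The count of 11 became 2 without NEVKP replicate 3 (median -0.19), 3 without SCS replicate 1 (median -0.31), 7 without SCS replicate 3 (median -0.42) and 18 without NEVKP replicate 1 (median -0.55). The shares of all probe sets in those fits are again not reported. NEVKP and SCS were each compared with the same No Storage arrays, so the comparisons are not independent of each other. In an F test over the groups, 14 of 39 had an unadjusted p under 0.05, where 12.8% of all probe sets did, and 0 of 39 passed the adjusted threshold, as 0.00523% of probe sets did.

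**Figure D4:**
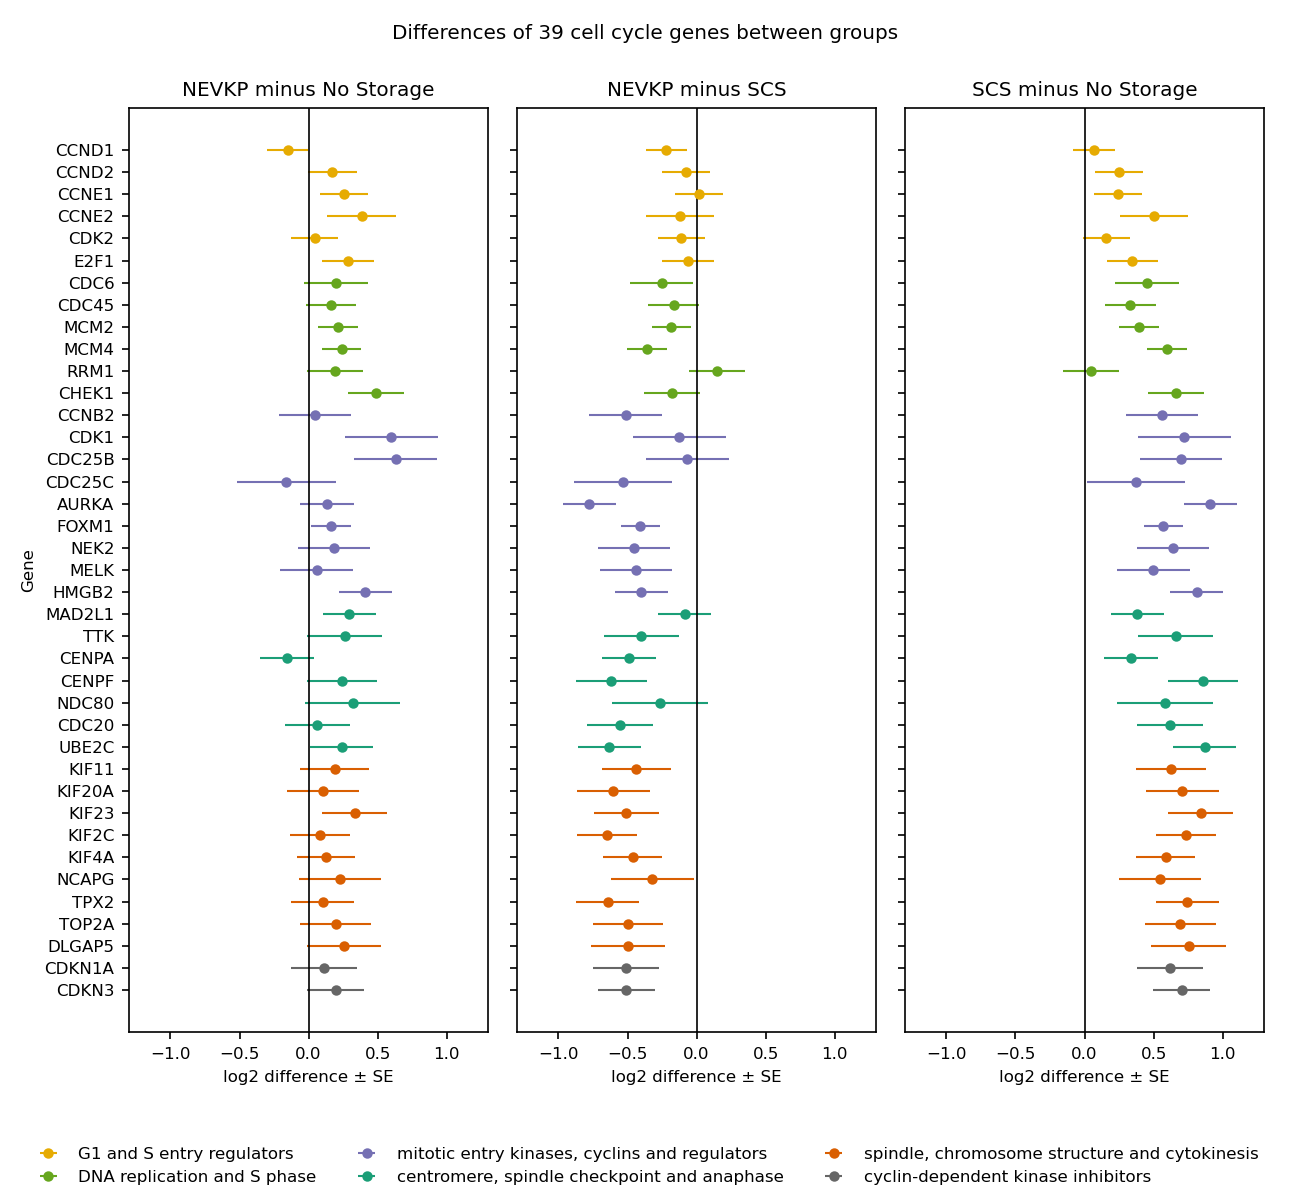
Log2 difference ± SE from limma (horizontal axes) of each of 39 cell cycle genes (rows, coloured by role) for NEVKP minus No Storage, NEVKP minus SCS and SCS minus No Storage. All 39 points lie right of 0 in the last panel and 37 lie left of 0 in the middle panel.

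Further genes of the pathway, 110 measured of 175 listed, were described in the same way. In SCS against No Storage kidneys, 25 of 45 other mitotic genes and 8 of 30 other replication genes had an unadjusted p under 0.05 and a higher mean, where 7.75% of all probe sets did, and 0 of either a lower one, where 7.79% did. Of 18 other G1, pocket protein and E2F genes 6 were higher and 3 lower at this level, and of 17 other inhibitor and checkpoint genes 2 were higher and 2 lower, which is 11.8% each way beside the same 7.75% and 7.79% of all probe sets. Their median log2 differences were 0.50 for mitotic, 0.22 for replication, 0.08 for G1 and 0.13 for inhibitor genes. In NEVKP against SCS kidneys 11 of 45 other mitotic genes, or 24.4%, were lower at this level, where 3.7% of all probe sets were. None of the 45 was higher, where 3.8% of all probe sets were, and the median was -0.27. For NEVKP against No Storage kidneys 3 of 45, or 6.67%, were higher, close to the 4.67% of all probe sets, with a median of 0.19.

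MYC, a transcription factor that promotes entry into the cycle, was the 1 gene of these 110 past the adjusted threshold in SCS against No Storage kidneys. Of all probe sets 0.162% passed it there. MYC had 8.09, 8.25 and 8.13 in NEVKP kidneys, 8.76, 8.47 and 8.27 in SCS kidneys and 7.51, 7.47 and 7.21 in No Storage kidneys, and it rose in SCS kidneys by 1.10 (SE 0.15, limma adjusted p = 0.0419), while NEVKP differed from No Storage by 0.76 (SE 0.15, limma adjusted p = 0.299). It kept the SCS call without SCS replicate 3 or NEVKP replicate 2 and lost it without any 1 of the 7 other kidneys (adjusted p 0.0614 to 0.184), with log2 differences of 0.97 to 1.22 throughout. MYBL2, a transcription factor that works with FOXM1 on mitotic genes, had 7.06, 7.09 and 6.81 in NEVKP kidneys, 8.13, 7.41 and 7.65 in SCS kidneys and 6.78, 6.91 and 6.47 in No Storage kidneys. All its SCS values lay above all others, with 1.01 (SE 0.20, limma adjusted p = 0.0646) from No Storage and a NEVKP minus SCS difference of -0.74 (SE 0.20, limma adjusted p = 0.52). In SCS against No Storage kidneys ESPL1, the protease that separates sister chromatids, had a difference of 0.64 (SE 0.14, limma adjusted p = 0.0749) and the spindle motor gene KIFC1 one of 0.62 (SE 0.13, limma adjusted p = 0.0748). In NEVKP against SCS they differed by -0.60 (SE 0.14, limma adjusted p = 0.52) and -0.44 (SE 0.13, limma adjusted p = 0.572), and the midbody kinase gene CIT by -0.47 (SE 0.16, limma adjusted p = 0.599). The smallest p for NEVKP against No Storage, after MYC, belonged to SKA2, a kinetochore gene, with 9.10, 9.11 and 8.80 in NEVKP kidneys, 9.18, 8.70 and 9.09 in SCS kidneys and 8.46, 8.45 and 8.30 in No Storage kidneys. Both preserved groups lay above No Storage here, and NEVKP differed by 0.60 (SE 0.16, limma adjusted p = 0.395). CDK6, a D-cyclin kinase, differed by 0.43 (SE 0.17, limma adjusted p = 0.511) for NEVKP against No Storage, and the DNA damage kinase gene ATR by -0.42 (SE 0.16, limma adjusted p = 0.495).

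Some lists of cell type markers also differed between the groups, but not all followed the cell cycle genes from kidney to kidney. SCS replicate 2, the array of lowest weight (0.464), had the lowest mitotic mean of the SCS kidneys, 0.445 relative to No Storage. On the same scale it had the highest mean of them for injured tubule (0.819) and fibroblast markers (0.966). The mean log2 level of injured tubule markers (11 of 12 measured, HAVCR1 dim) was 8.59 to 9.26 in NEVKP kidneys, 8.71 to 9.14 in SCS kidneys and 8.13 to 8.51 in No Storage kidneys. That of fibroblast and pericyte markers (9 of 10 measured) was 10.19 to 10.44 in NEVKP kidneys, 10.30 to 10.64 in SCS kidneys and 9.51 to 9.79 in No Storage kidneys. Both preserved groups lay above No Storage on these lists, with a median NEVKP minus SCS difference of -0.19 for injured tubule and -0.09 for fibroblast markers beside -0.49 for the mitotic genes. Single genes ran from -0.89 to 1.45 in the injured tubule list and from -0.82 to 0.33 in the fibroblast list. The mitotic genes ran from -0.78 to -0.07, so single markers of both lists were as far below SCS. Proximal tubule markers (9 of 15 measured) had mean levels of 9.72 to 10.56 in NEVKP kidneys, 9.70 to 10.30 in SCS kidneys and 10.60 to 10.73 in No Storage kidneys. Loop of Henle and distal tubule markers (6 of 9 measured) had 9.26 to 9.57 in NEVKP kidneys, 8.22 to 8.97 in SCS kidneys and 9.20 to 9.55 in No Storage kidneys. SCS kidneys were below both other groups on the loop and distal list. Monocyte and macrophage markers (11 of 13 measured) had 7.22 to 7.78 in NEVKP kidneys, 6.98 to 7.28 in SCS kidneys and 6.83 to 6.94 in No Storage kidneys, and NEVKP replicate 2 was the highest. T and NK cell markers (13 of 14 measured) had 5.28 to 5.31 in NEVKP kidneys, 5.01 to 5.19 in SCS kidneys and 4.91 to 5.22 in No Storage kidneys. B and plasma cell markers (6 of 11 measured, PAX5 dim) had 5.86 to 6.21 in NEVKP kidneys, 5.67 to 6.16 in SCS kidneys and 5.57 to 5.91 in No Storage kidneys. On both lymphocyte lists the SCS and No Storage ranges overlapped. Endothelial markers (5 of 9 measured) had 7.21 to 7.90 in NEVKP kidneys, 7.40 to 7.84 in SCS kidneys and 7.64 to 7.81 in No Storage kidneys, and neutrophil markers (5 of 7 measured, with S100A8, S100A9 and MPO dim) had 3.87 to 4.05 in NEVKP kidneys, 4.04 to 4.50 in SCS kidneys and 3.67 to 4.05 in No Storage kidneys. The neutrophil list had a median of 0.29 for SCS minus No Storage and -0.24 for NEVKP minus SCS, the directions of the mitotic genes. Its means relative to No Storage were 0.06, 0.16 and 0.24 in NEVKP kidneys and 0.69, 0.23 and 0.43 in SCS kidneys. In No Storage kidneys they were -0.14, 0.24 and -0.10 (replicates 1, 2 and 3). The SCS kidneys thus kept the order of the mitotic means, and No Storage replicate 2 was highest on both. Among NEVKP kidneys the order was reversed. The part of these cell types in the cell cycle values was not tested.

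**Figure D5:**
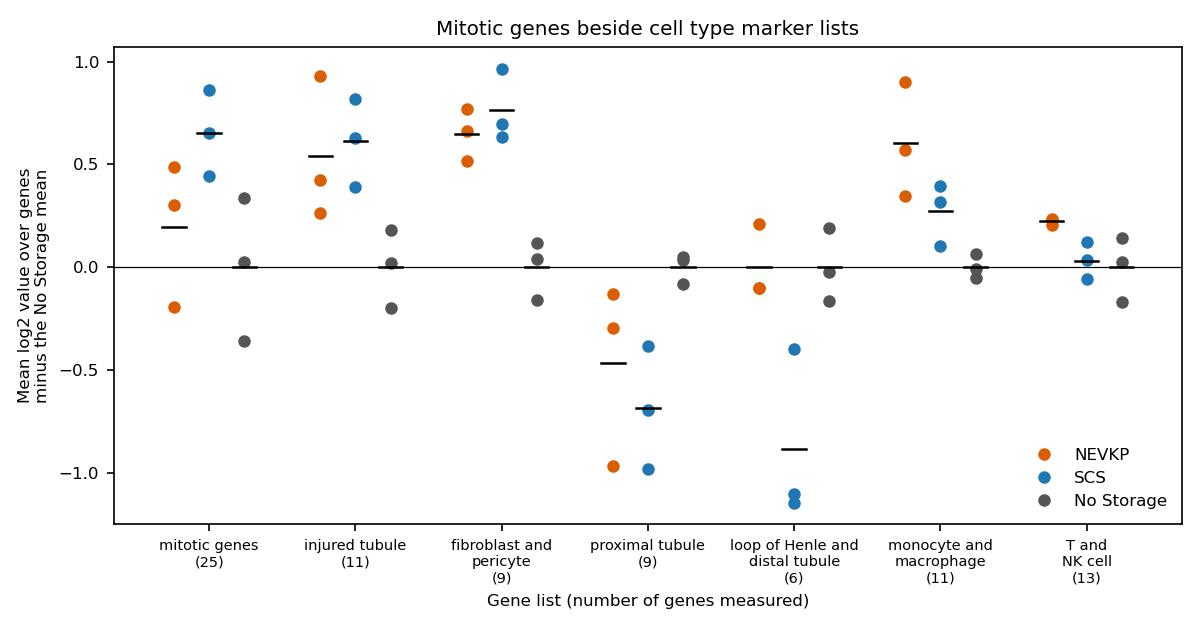
Mean log2 value over the genes of each list minus their No Storage mean (vertical axis) for mitotic genes and 6 cell type marker lists (horizontal axis, with gene numbers), with 1 point per kidney and a bar at the group mean. Fibroblast markers are high in both NEVKP and SCS kidneys, and mitotic genes reach -0.19 in the lowest NEVKP kidney and 0.45 in the lowest SCS kidney. The endothelial, neutrophil, and B and plasma cell lists are not drawn.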

How the data were processed

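RNA from 9 kidney biopsies, 3 per group, was measured on 1 array each. The deposited values are log2 intensities. The authors made them with RMA, a method that normalizes arrays to each other and summarises probes, per the submitters' processing notes. The same notes list limma 3.34.14. Neither the array type nor any filter was given in the sources used here. RMA makes the arrays alike in distribution, so a shift shared by most genes would not be seen.

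Of 19124 probe sets, 13323 carried 1 gene symbol in GEO's platform annotation, which can be old, 357 carried several and 5444 none. The cell cycle genes and all lists were chosen with earlier results of these data known. limma 3.58.1 in R 4.3.3 was fitted to all 9 arrays and all probe sets with group as the factor (lmFit, eBayes, 6 residual degrees of freedom), with Benjamini-Hochberg adjustment over all probe sets and a threshold of 0.05. Probe sets in the lowest 25% of mean log2 value (under 3.923) were called dim. The fit was tested on simulated data. Nothing in the labels says more of the replicates than 1 animal each. Every measured gene of the list could be named, with all 9 values for the 10 of smallest p per comparison and for a fixed set. RRM1 and KIF20A were given with all 9 values outside this rule. For further pathway genes, the 4 of smallest p per comparison were named. Alternatives were a replicate block, array weights, a trended and robust prior, removal of dim probe sets, median centring, averaging the probe sets of a gene, fits of only the groups compared and leaving out each array. Leaving out both arrays of lowest weight was chosen after seeing the data.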

Additional observations from a re-analysis of the deposited data

How the results depend on the processing

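No cell cycle gene of the 39 passed the adjusted threshold under any alternative run, and the median log2 difference of the 39 kept its direction in all of them. Leaving out 1 array gave medians of 0.42 to 0.75 for SCS minus No Storage, 0.040 to 0.35 for NEVKP minus No Storage and -0.55 to -0.19 for NEVKP minus SCS. The number of genes at an unadjusted p under 0.05 ran from 11 to 30, 0 to 8 and 2 to 18 in the same comparisons. As the matching shares of all probe sets are not reported, a change in the 39 alone cannot be told from one in the whole fit.

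Of all probe sets, 31 passed for SCS minus No Storage, against 83 with a trended and robust prior, 93 with array weights, 82 without the dimmest 25%, 49 with arrays centred on their median, 0 without SCS replicate 2 and NEVKP replicate 2, the pair of lowest array weight (chosen after seeing the data), and 0 to 158 without 1 array. For NEVKP minus No Storage 0 passed throughout. For NEVKP minus SCS 0 passed, against 1 with array weights and 0 to 1 without 1 array. The F test passed 1, against 5 with array weights, 0 without both arrays of lowest weight and 0 to 9 without 1 array. The cause was not tested. The call of MYC was also lost with only the groups compared (adjusted p = 0.0552 in limma) and without both arrays of lowest weight (0.0887). None of the 39 genes was dim.

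Of 9 same-numbered pairs of arrays, 1 had a correlation of deviations over 0.1. The differently numbered SCS replicate 2 and NEVKP replicate 3 reached 0.17. No pairing by replicate number was seen, but with 3 arrays a group this cannot show that the samples were unpaired. With the replicate number as a block, 27 probe sets passed for SCS minus No Storage and 0 in the F test, and 22, 3 and 14 of the 39 genes had an unadjusted p under 0.05 for SCS minus No Storage, NEVKP minus No Storage and NEVKP minus SCS. The share of all probe sets at that unadjusted level in this fit is not reported.

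Small differences changed sign. With median centring RRM1 was -0.0032 for SCS minus No Storage, and CDK2 -0.0098 and CCNB2 -0.0088 for NEVKP minus No Storage. Without both arrays of lowest weight CDK2 was -0.12, CCNB2 -0.018 and MELK -0.026 for NEVKP minus No Storage, and CCNE1 -0.19, RRM1 -0.20 and CDC25B 0.033 for NEVKP minus SCS. CCNE1 was -0.046 with array weights for NEVKP minus SCS. Leaving out 1 array also changed signs, over the ranges that follow. For SCS minus No Storage these were CCND1 -0.027 to 0.14 and RRM1 -0.058 to 0.24. For NEVKP minus No Storage these were CDK2 -0.12 to 0.22, CCNB2 -0.14 to 0.28, CDC25C -0.47 to 0.24, AURKA -0.024 to 0.31, NEK2 -0.043 to 0.44, MELK -0.11 to 0.29, TTK -0.0035 to 0.50, CENPA -0.35 to 0.014, CENPF -0.04 to 0.43, CDC20 -0.085 to 0.27, KIF20A -0.14 to 0.35, KIF2C -0.042 to 0.22, KIF4A -0.053 to 0.29, NCAPG -0.01 to 0.47, TPX2 -0.077 to 0.34, TOP2A -0.031 to 0.43, DLGAP5 -0.024 to 0.47 and CDKN1A -0.057 to 0.43. For NEVKP minus SCS these were CCND2 -0.22 to 0.14, CCNE1 -0.11 to 0.19, CCNE2 -0.29 to 0.16, CDK2 -0.28 to 0.059, E2F1 -0.22 to 0.066, RRM1 -0.051 to 0.33, CDK1 -0.49 to 0.17, CDC25B -0.29 to 0.25, MAD2L1 -0.21 to 0.035 and NDC80 -0.49 to 0.079.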
